A study of Mus musculus with 9 samples.

Results

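The long non-coding RNAs described here were 8 genes chosen by name: Malat1, Gas5, Snhg1, Rmst, Miat, Kcnq1ot1, Snhg11 and H19. All transcripts listed for these genes were taken. They came to 8 transcripts of 7 genes, out of 30978 transcripts of 23201 named genes in the 9 tables. No listed transcript could be matched to H19, which is not analysed here. Of the 8 transcripts, 6 from 5 genes averaged 0.5 RPKM or more across all libraries and were tested. RPKM stands for reads per kilobase and per 1e6 reads, so levels of different genes can be set side by side.

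The tissue was cerebral cortex of mouse embryos at E13.5, when radial glia divide along the ventricle and cortical neurons are being added. The study is about Sfpq, an RNA-binding protein of nuclear paraspeckles, and how its loss changes transcription in the developing cortex. There were 3 libraries from Sfpq homozygous mutant embryos, 3 from Sfpq heterozygous embryos and 3 from control embryos. Genotypes were taken from the sample titles, the genotype labels and the design text; the extraction protocol writes both mutant groups as Sfpq+/-, so the labels differ on this point. All groups shared the strain label C57BL/6+C57BL/6J+CBA and the cell type label of neural stem cells with neurons. The sources used here do not give the deleted exons, the allele or any Cre driver. Ribosomal RNA was removed from total RNA, so RNAs were kept whether or not they carried a poly(A) tail.

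Long non-coding RNAs do not code for a long protein, and several of them act in the nucleus. Malat1 collects in nuclear speckles, bodies rich in splicing factors, and Miat forms nuclear domains of its own in neurons. Rmst is known in human neural stem cells as a partner of the transcription factor SOX2. Snhg1 and Gas5 carry small nucleolar RNAs (snoRNAs) in their introns, and their spliced exons are degraded during translation. Kcnq1ot1 and H19 are imprinted RNAs of one chromosome region, and Kcnq1ot1 silences neighbouring genes on the paternal chromosome.

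Sfpq averaged 24.96 ± 1.06 RPKM in homozygous cortex, 156 ± 10.6 RPKM in heterozygous cortex and 185 ± 16.8 RPKM in control cortex (transcript NM_023603, SD, n = 3 each). Heterozygous libraries, at 148.6 to 168.1 RPKM, overlapped control libraries, at 167.8 to 201.3 RPKM. Their log2 change of -0.25 ± 0.07 (SE) did not pass (limma adjusted p = 0.664). Sfpq therefore checks the homozygous label and not the heterozygous one. By Xist and Y-linked genes the homozygous embryos were 1 female and 2 males, the heterozygous embryos 3 males and the control embryos 2 females and 1 male. Depth, estimated from the spacing of low values, was 168 to 203 (in 1e6 reads) per library. Among all 17725 transcripts tested, 6196 changed in homozygous against control cortex, 2588 of them higher and 3608 lower (limma, adjusted p below 0.05). Quantile normalization turned that split into 3952 higher and 3209 lower. Over all genes tested, with 1 transcript each, 14.5% were higher and 20.0% lower. Of the 11 marker lists of cell types, cortical neurons had 2 of 17 genes higher and 6 lower. Cortical progenitors had 1 of 11 higher and 4 lower, and intermediate progenitors 1 of 7 higher and 4 lower. Markers of meninges (14 tested), endothelium (10 tested) and choroid plexus (7 tested) had no gene that passed in homozygous against control cortex. Pericytes had 1 of 6 and GABAergic neurons 1 of 5 higher, and erythroid cells had 2 of 7 lower. The erythroid count was 0 without control library 2, control library 3 or homozygous library 3, 1 without homozygous library 1, 4 without control library 1 or heterozygous library 2, and 5 with the replicate number as a block. Across the alternatives, meninges and choroid plexus had 0 to 1 gene in either direction, endothelium 0 to 1 higher, pericytes 0 to 3 higher and GABAergic neurons 0 to 2 higher and 0 to 1 lower. Cortical neurons had 1 to 2 higher and 4 to 8 lower, and intermediate progenitors 0 to 1 higher and 2 to 5 lower. In bulk tissue, fewer cells of a type and less RNA per cell cannot be told apart.

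The label of abundant RNAs held for some of these genes and not for others. Malat1 was the highest, between 315 and 588 RPKM, and stood between places 65 and 182 among all listed transcripts of a library. Gas5 followed at 68.4 to 89.1 RPKM. Snhg1 and Rmst came next, and their ranges overlapped within each genotype, so their order is not resolved. Miat lay lower, at 4.25 to 7.21 RPKM for its transcript NR_003718. Kcnq1ot1 at 0.216 to 0.337 RPKM and Snhg11 at 0.0814 to 0.318 RPKM were not abundant in this tissue. The ranges of these last RNAs overlapped in homozygous cortex, whereas Kcnq1ot1 was above Snhg11 in all heterozygous and control libraries.

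**Figure D1:**
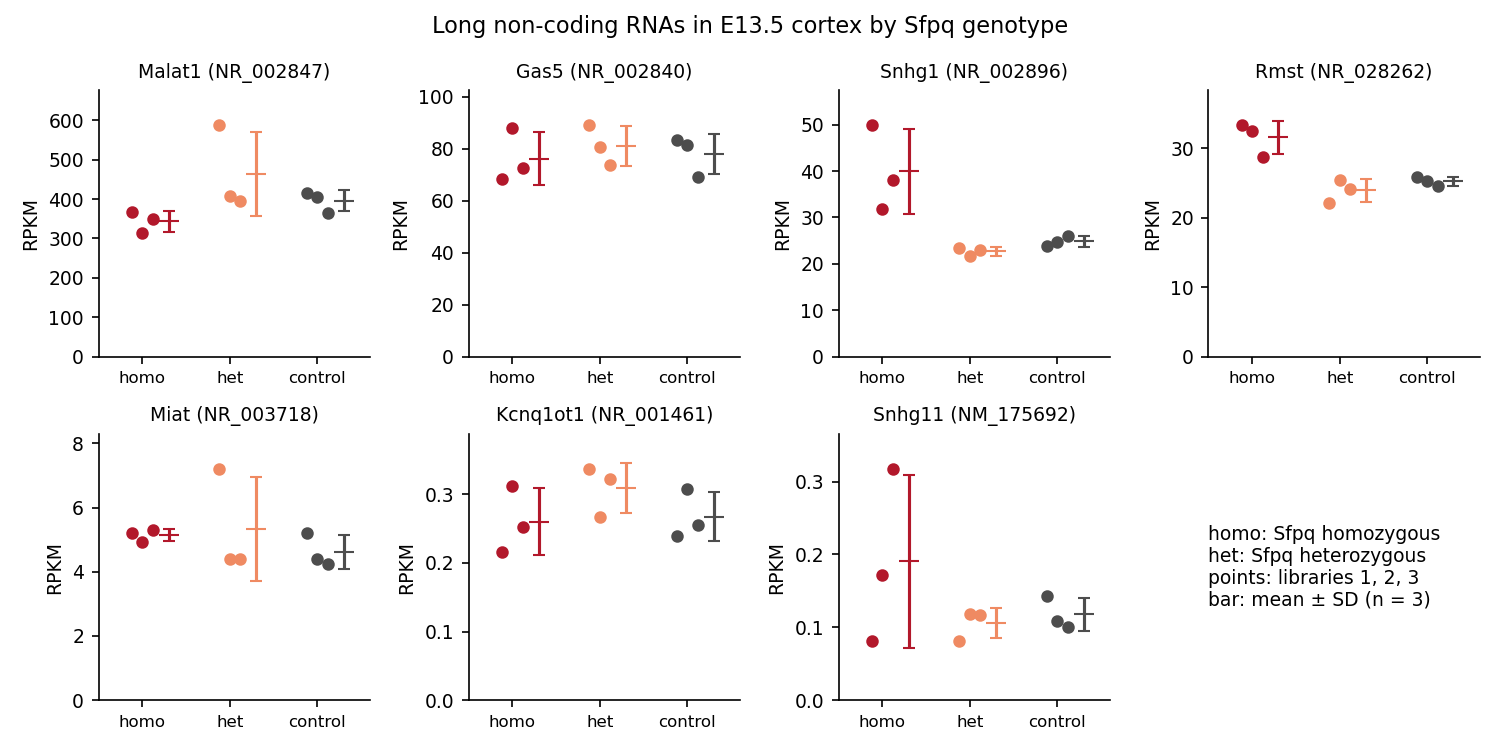
RPKM of 7 long non-coding RNAs in each library, with homozygous, heterozygous and control libraries from left to right in each panel and a separate linear axis from 0 for each gene. Points are libraries and bars are the mean ± SD of 3 libraries; Snhg1 and Rmst are higher in all homozygous libraries, and heterozygous library 1 has the highest Malat1 and Miat.

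The main comparison of the design is homozygous against control cortex. Snhg1 and Rmst rose in homozygous against control cortex, and Malat1, Gas5 and Miat did not pass the test. So 2 of the 6 tested transcripts changed, both upward, where 35.0% of all transcripts tested changed, 14.6% higher and 20.4% lower. The share of these transcripts that changed was close to that of transcripts in general, but 2 of the 6 are Miat transcripts with nearly equal values. By gene, 2 of 5 changed, beside 34.5% of all genes tested, 14.5% higher and 20.0% lower. So few genes cannot fix the share closely.

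Snhg1 (NR_002896) is a host of box C/D snoRNAs, which guide the methylation of ribosomal RNA. Its gene is at chr19:8723487-8726326 on the plus strand of GRCm38, spans 2.84 kb and holds Snord22. Host transcripts of this class often start with a C followed by a run of C and T, the terminal oligopyrimidine tract that ties translation to growth signals. The first bases of Snhg1 and Gas5 are shown because these are the tested snoRNA hosts among the genes described. Each line gives 100 bases of GRCm38.p6 from RefSeq, 50 on either side of an annotated start, from chr19:8723437-8723536 for Snhg1 and from chr1:161035116-161035215 for a start of Gas5, both on the plus strand. Capitals mark a C followed by at least 5 bases that are C or T within 5 bases of the start.
Snhg1: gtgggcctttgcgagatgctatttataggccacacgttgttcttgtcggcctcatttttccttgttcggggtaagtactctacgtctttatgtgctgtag
Gas5: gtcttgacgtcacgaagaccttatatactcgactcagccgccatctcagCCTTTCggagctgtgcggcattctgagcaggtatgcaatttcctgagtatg
Such a tract was found at this start of Gas5, not at another annotated start of Gas5 and not at that of Snhg1, and 9.10% of the 32851 promoter windows in the RefSeq table hold one in sense orientation. A match of letters is a description and not a sign of how the RNA is translated.

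In single libraries Snhg1 was at 49.9, 31.9 and 38.2 RPKM in homozygous cortex, 23.3, 21.6 and 23.0 RPKM in heterozygous cortex and 23.7, 24.6 and 26.1 RPKM in control cortex. All 3 homozygous libraries lay above all others, and they differed more among themselves than the libraries of the other genotypes. The homozygous mean of 39.97 ± 9.14 RPKM was 1.61 times the control mean of 24.8 ± 1.19 RPKM (SD, n = 3 each). On the log2(RPKM + 0.5) scale the change was 0.65 ± 0.12 (SE; 95% interval 0.39 to 0.92), with a limma adjusted p of 0.00150. In a two-sided exact permutation test p was 0.1, the lowest value possible with 3 libraries in each group. The rise passed in all 20 alternative settings run, between 0.48 and 0.80 on the log2 scale. Such a separation was common, since homozygous and control libraries did not overlap for 46.6% of all transcripts tested, 20.5% higher and 26.1% lower.

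Gas5 (NR_002840) is likewise a snoRNA host and is known in other cells as a decoy of the glucocorticoid receptor that builds up when growth stops. Its gene is at chr1:161034601-161038539 on the plus strand of GRCm38 and spans 3.94 kb. The libraries were at 68.4, 88.0 and 72.5 RPKM in homozygous cortex, 89.1, 80.6 and 73.7 RPKM in heterozygous cortex and 83.5, 81.4 and 69.0 RPKM in control cortex. The groups overlapped throughout. The change in homozygous against control cortex was -0.04 ± 0.10 (SE; 95% interval -0.26 to 0.19) and did not pass (limma adjusted p = 0.824). Quantile normalization, and leaving out control library 1 or homozygous library 1, turned its sign, without passing the test. Gas5 overlaps Zbtb37 on the opposite strand, and whether strand was used in making the values is not given. Zbtb37 itself was at 2.65 ± 0.193, 2.53 ± 0.0939 and 2.45 ± 0.135 RPKM in homozygous, heterozygous and control cortex (SD, n = 3 each).

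As a comparison chosen after the values were seen, the log2 ratio of Snhg1 to Gas5 in the same library was set between genotypes. It averaged -0.95 ± 0.51 in homozygous cortex and -1.65 ± 0.22 in control cortex (SD, n = 3 each). The libraries ranged from -1.47 to -0.46 in homozygous cortex and from -1.81 to -1.40 in control cortex, so they overlapped, and the two-sided exact permutation test gave p = 0.2. A difference in behaviour between the 2 hosts was thus not resolved by this test. With 3 libraries in each group its p cannot fall below 0.1, so it could not have passed at 0.05.

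Other genes with snoRNAs in their introns moved in both directions. Of 26 tested, 7 rose and 4 fell in homozygous against control cortex, with a median log2 change of 0.12, against 34.5% changed, 14.5% higher and 20.0% lower, and a median of -0.01 over 12159 genes tested with 1 transcript each. With a minimum mean of 2 RPKM, 4 of 21 rose. Snhg10 was at 2.38 ± 0.159 RPKM in homozygous, 1.67 ± 0.262 RPKM in heterozygous and 1.58 ± 0.224 RPKM in control cortex (SD, n = 3 each), and its change of 0.47 ± 0.11 (SE) passed with a limma adjusted p of 0.00500. Snhg16 rose by 0.38 ± 0.09 (SE; limma adjusted p = 0.00775) and Rpl4, a protein of the large ribosomal subunit, by 0.26 ± 0.05 (SE; limma adjusted p = 0.00296). Snhg18 fell by 0.63 and Snhg7 by 0.51 on the log2 scale (limma adjusted p = 1.68e-04 and 0.00134). Snhg14, the long host over the Ube3a region, fell by 0.30, and Rcc1, the nucleotide exchange factor of Ran whose locus also holds Snhg3, fell by 0.31 (limma adjusted p = 0.00143 and 0.00262). Within this list of hosts, which does not hold Rian, a snoRNA host counted among the other long non-coding RNAs, the change of Snhg1 was above that of each other gene; Rian rose by more.

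**Figure D2:**
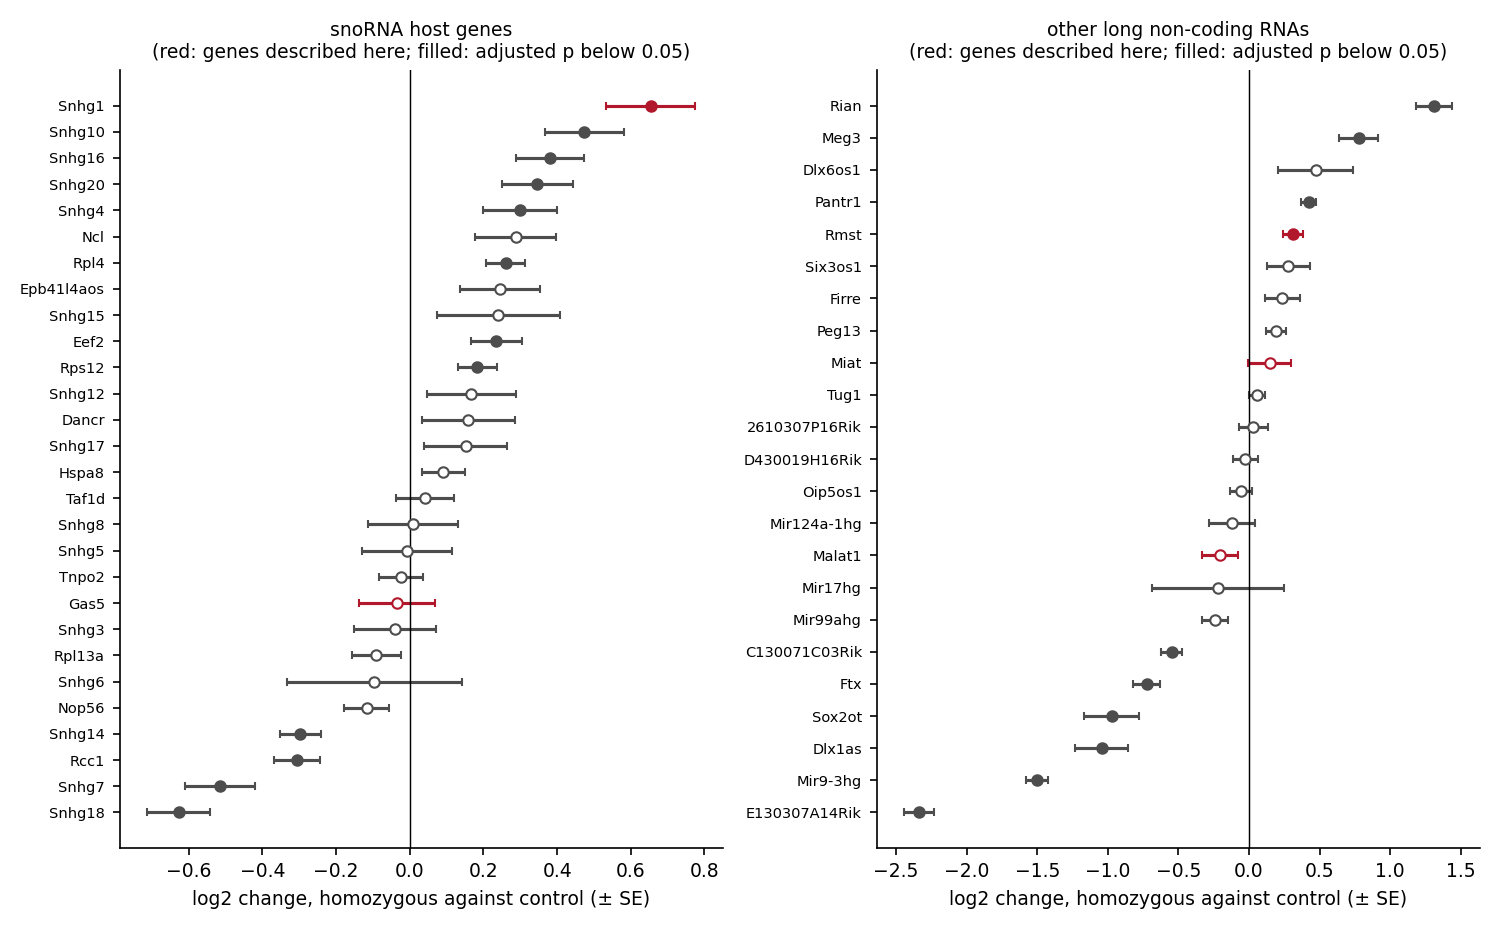
Log2 change in homozygous against control cortex (x axis, ± SE from the limma fit) of snoRNA host genes on the left and of other long non-coding RNAs on the right, 1 gene per row, with the genes described in detail in red. Filled points had an adjusted p below 0.05; Snhg1 stands at the top of the left panel with 0.65 and Gas5 near 0, while Rian, itself a snoRNA host with a higher change, and E130307A14Rik are at the ends of the right panel.

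Genes of the translation machinery whose mRNAs begin with a terminal oligopyrimidine tract, as known from the literature, were counted in the same way. In homozygous against control cortex 13 of 28 rose and 0 fell, with a median log2 change of 0.13. Over all genes tested, with 1 transcript each, 14.5% rose and 20.0% fell. The count was 7 without control library 1, 6 without control library 2, 5 without homozygous library 1 and 8 without homozygous library 3, 6 without the mean-variance trend and 22 after quantile normalization. Rpl23, a protein of the large ribosomal subunit, was at 387 ± 15.6 RPKM in homozygous cortex and 325 ± 3.57 RPKM in control cortex (SD, n = 3 each), a log2 change of 0.25 ± 0.05 (SE; limma adjusted p = 0.00124). Eif3f, a subunit of the initiation factor that joins the small ribosomal subunit to mRNA, rose by 0.27 ± 0.05 (SE; limma adjusted p = 0.00214). Rps6, the ribosomal protein phosphorylated by S6 kinase, rose by 0.19 ± 0.05 (SE; limma adjusted p = 0.00633). Nonsense-mediated decay is the pathway that degrades the spliced exons of many snoRNA hosts. Its factors and known targets had 4 of 17 genes higher and 4 lower, beside 14.5% higher and 20.0% lower over all genes. The number higher was 2 without control library 2 or homozygous library 3, and the number lower was 2 without homozygous library 1 and 6 without control library 1. With no minimum level both were 2. The endonuclease Smg6 was at 9.82 ± 0.457 RPKM in homozygous cortex and 15.3 ± 1.05 RPKM in control cortex (SD, n = 3 each), a log2 change of -0.62 ± 0.06 (SE; limma adjusted p = 1.99e-05). Gadd45a, a stress gene whose mRNA is a target of the pathway, rose by 0.71 ± 0.13 (SE; limma adjusted p = 0.00116). The core helicase Upf1 was at 11.8 ± 1.11 RPKM in homozygous cortex and 12.9 ± 1.67 RPKM in control cortex (SD, n = 3 each).

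The small RNAs held within these genes were sparsely measured, with 5 of 24 listed and 2 tested, and neither passed in homozygous against control cortex. Each passed in 1 alternative, Snord22 without control library 1 (limma adjusted p = 0.00611) and Snord47 with a term for sex (limma adjusted p = 0.00907), where the adjusted p over the alternatives ran from 0.00611 to 0.294 for Snord22 and from 0.00907 to 0.731 for Snord47. Snord22, inside Snhg1, was at 78.6 ± 4.26 RPKM in homozygous, 63.4 ± 10.8 RPKM in heterozygous and 62.8 ± 14.6 RPKM in control cortex (SD, n = 3 each; homozygous against control log2 change 0.34 ± 0.15 SE, limma adjusted p = 0.0947). The homozygous libraries reached from 73.9 to 82.05 RPKM and overlapped the highest control library at 79.4 RPKM. Snord47, inside Gas5, averaged 0.837, 0.671 and 0.576 RPKM in homozygous, heterozygous and control cortex. Mir1251 and Mir135a-2, of the Rmst locus, were listed at 0 in every library, which does not show that these microRNAs were absent. Mir675, inside H19, was listed between 0.0608 and 0.701 RPKM, below the minimum for testing. Snord22, Snord47 and Mir675 lie within their hosts, so reads of the host could be counted under them. That was not tested.

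Slc3a2, the heavy chain of amino acid transporters, is the next gene to Snhg1, 0.118 kb away. It averaged 21.2 ± 3.53 RPKM in homozygous, 15.98 ± 0.321 RPKM in heterozygous and 17.2 ± 0.878 RPKM in control cortex (SD, n = 3 each). Its log2 change in homozygous against control cortex was 0.28 ± 0.10 (SE; limma adjusted p = 0.0476), a call that held in 7 of 20 alternatives and was lost without homozygous library 1 (limma adjusted p = 0.184), without homozygous library 3 (0.148) and without any single control or heterozygous library (0.0600 to 0.125). Wdr74, the next gene on the other side, was at 16.01 ± 0.768 RPKM in homozygous cortex and 14.6 ± 0.375 RPKM in control cortex (SD, n = 3 each).

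Rmst (NR_028262) was the other RNA that rose. Its gene, at chr10:92081746-92165178 on the minus strand of GRCm38, spans 83.4 kb and is known from the dorsal midline of the developing midbrain and from the border of midbrain and hindbrain. The libraries were at 33.3, 32.5 and 28.8 RPKM in homozygous cortex, 22.1, 25.5 and 24.2 RPKM in heterozygous cortex and 25.9, 25.3 and 24.6 RPKM in control cortex. The homozygous libraries were all above the others. The homozygous mean of 31.5 ± 2.41 RPKM was 1.25 times the control mean of 25.2 ± 0.669 RPKM (SD, n = 3 each), a log2 change of 0.31 ± 0.07 (SE; 95% interval 0.16 to 0.46; limma adjusted p = 0.00416; two-sided exact permutation p = 0.1). It passed in all 20 alternatives, between 0.27 and 0.38.

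Several markers of the diencephalon, cortical hem and other brain regions were also higher in homozygous cortex. Of 7 tested, 5 rose and 0 fell in homozygous against control cortex, with a median log2 change of 0.52. Across all genes tested, with 1 transcript each, 14.5% rose and 20.0% fell. In the alternatives 3 to 5 of these markers rose, and 1 fell with a term for sex and without control library 1. Their 12 measured genes summed to 45.5 to 48.8 RPKM in homozygous, 31.1 to 36.2 RPKM in heterozygous and 31.5 to 37.2 RPKM in control libraries. Lhx9, a transcription factor of the thalamus and pretectum, was at 7.02 ± 0.548 RPKM in homozygous cortex and 3.53 ± 0.0727 RPKM in control cortex (SD, n = 3 each), a log2 change of 0.90 with a limma adjusted p of 3.10e-06. Barhl2, a transcription factor of the diencephalon, was at 2.77 ± 0.165 RPKM in homozygous cortex and 1.04 ± 0.0938 RPKM in control cortex (SD, n = 3 each). The midbrain and hindbrain markers En1, En2, Foxa2 and Hoxa2 averaged at most 0.0225 RPKM in any genotype. Markers of microglia also moved, with 5 of 10 higher and 0 lower and a range of 2 to 7 across the alternatives, with 2 without control library 1 or homozygous library 3. They summed to 21.2 to 29.0 RPKM in homozygous, 17.1 to 20.97 RPKM in heterozygous and 16.1 to 18.1 RPKM in control libraries. The part of these cell types in the rise of Rmst and Snhg1 was not tested.

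Sox2, whose human protein is the known partner of RMST, was at 99.8 ± 6.24 RPKM in homozygous cortex and 97.4 ± 9.58 RPKM in control cortex (SD, n = 3 each) and did not pass (log2 change 0.04 ± 0.08 SE, limma adjusted p = 0.741). Of 11 genes of the neural SOX2 network 1 rose and 3 fell, where 34.5% of all genes tested changed, 14.5% higher and 20.0% lower. The share of this network that changed was thus close to the general one. Across the alternatives 0 to 2 rose and 2 to 4 fell. Neurog2, the proneural factor of cortical progenitors, was at 24.5 ± 3.71 RPKM in homozygous, 60.5 ± 6.34 RPKM in heterozygous and 62.4 ± 4.43 RPKM in control cortex (SD, n = 3 each), a log2 change of -1.34 ± 0.11 (SE; limma adjusted p = 2.18e-06). Sox1 fell by 0.27 on the log2 scale (limma adjusted p = 0.00801). Hey2 passed in 14 of 20 alternatives. Its call was lost without control library 2 or 3, heterozygous library 2 or homozygous library 1 or 3. In those settings, and in the fit of the 2 compared groups, the number of network genes higher was 0. The closest coding genes listed on either side of Rmst were far away, Tmpo at 900 kb and Nedd1 at 520 kb. Tmpo was at 173 ± 5.83 RPKM in homozygous cortex and 195 ± 3.09 RPKM in control cortex (SD, n = 3 each). Its log2 change of -0.17 ± 0.05 (SE) passed (limma adjusted p = 0.0179). Nedd1 was at 20.9 ± 0.903 RPKM in homozygous cortex and 23.3 ± 1.75 RPKM in control cortex (SD, n = 3 each). Its log2 change of -0.15 ± 0.07 (SE) did not pass (limma adjusted p = 0.129).

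Malat1 (NR_002847) is encoded at chr19:5795690-5802672 on the minus strand of GRCm38, spans 6.98 kb and is little spliced. Its libraries were at 366, 315 and 349 RPKM in homozygous cortex, 588, 408 and 395 RPKM in heterozygous cortex and 416, 407 and 365 RPKM in control cortex. Homozygous library 1 reached just above control library 3, so these groups overlapped, and heterozygous library 1 was far above every other library. Malat1 took 0.299% to 0.349% of RPKM times exonic length in homozygous, 0.364% to 0.552% in heterozygous and 0.327% to 0.396% in control libraries.

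The mean of Malat1 was 343 ± 26.2 RPKM in homozygous cortex and 396 ± 26.8 RPKM in control cortex (SD, n = 3 each). The change of -0.21 ± 0.13 (SE; 95% interval -0.48 to 0.07) did not pass (limma adjusted p = 0.236; two-sided exact permutation p = 0.2). Without heterozygous library 1 the same change had a smaller SE of 0.07 and passed (limma adjusted p = 0.0402). That call rested on the estimate of spread, which the 3 genotypes share.

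Proteins of nuclear speckles and splicing, the setting in which Malat1 is best known, had 3 of 25 genes higher and 8 lower in homozygous against control cortex, with a median log2 change of -0.06, where 34.5% of genes tested changed, 14.5% higher and 20.0% lower. Leaving out homozygous library 1, homozygous library 3 or control library 2 brought the number lower to 5. Srsf4, a serine- and arginine-rich splicing factor, was at 6.01 ± 0.715 RPKM in homozygous, 21.3 ± 3.03 RPKM in heterozygous and 26.3 ± 2.29 RPKM in control cortex (SD, n = 3 each), a log2 change of -2.04 ± 0.11 (SE; limma adjusted p = 9.43e-08). Tra2b fell by 0.50 and the neuronal splicing repressor Ptbp2 by 0.39, while Tra2a rose by 0.36 and Srsf6 by 0.32 on the log2 scale (limma adjusted p at most 3.43e-04). Of 17 paraspeckle proteins, 4 rose and 5 fell, Sfpq itself among those that fell. Pspc1, the close relative of Sfpq, was at 262 ± 11.1 RPKM in homozygous, 133 ± 8.26 RPKM in heterozygous and 102 ± 1.59 RPKM in control cortex (SD, n = 3 each), and the nuclear matrix protein Matr3 rose by 0.58. Neat1, the RNA that builds paraspeckles and lies 22.04 kb from Malat1, was at 0.217 ± 0.0986 RPKM in homozygous, 0.221 ± 0.0206 RPKM in heterozygous and 0.237 ± 0.0206 RPKM in control cortex (SD, n = 3 each), too low to be tested.

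Miat (NR_003718 and NR_033657), also known as Gomafu, is encoded at chr5:112213228-112228948 on the minus strand of GRCm38 and spans 15.7 kb. The 2 transcripts shared almost all of their values, with NR_003718 at 50.1% of their sum in every genotype, and count as 1 gene. NR_003718 was at 5.20, 4.94 and 5.29 RPKM in homozygous cortex, 7.21, 4.41 and 4.39 RPKM in heterozygous cortex and 5.21, 4.40 and 4.25 RPKM in control cortex. Heterozygous library 1 was again the highest of all, and homozygous and control libraries overlapped. The change in homozygous against control cortex was 0.15 ± 0.15 (SE; 95% interval -0.19 to 0.48; limma adjusted p = 0.493). Among the splicing proteins that Miat is known to bind, Sf1, the branch point binding protein, was at 8.30 ± 0.337 RPKM in homozygous cortex and 9.76 ± 0.716 RPKM in control cortex (SD, n = 3 each). Markers of cortical neurons, where Miat is known to be made, summed to 667 to 838 RPKM in homozygous, 807 to 911 RPKM in heterozygous and 778 to 900.2 RPKM in control libraries. Heterozygous library 1 had the highest of these sums, 911 RPKM, and its part in the level of Miat was not tested.

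Kcnq1ot1 (NR_001461) lies at chr7:143213111-143296547 on the minus strand of GRCm38, within Kcnq1, which runs on the other strand, and spans 83.4 kb. It was at 0.216, 0.313 and 0.253 RPKM in homozygous cortex, 0.337, 0.267 and 0.322 RPKM in heterozygous cortex and 0.240, 0.308 and 0.255 RPKM in control cortex. The 3 genotypes overlapped, and the two-sided exact permutation test of homozygous against control gave p = 0.9. Because the transcript is long, these low values stand for an estimated 3372 to 5822 reads per library. That estimate used a length of 93.1 kb from GENCODE M21, above the span of 83.4 kb from RefSeq, so it may be too high. With no minimum level and a pseudocount of 0.01 RPKM, an alternative added after the data were seen, the log2 change was -0.05 ± 0.17 (SE; 95% interval -0.46 to 0.37). Reads of unspliced Kcnq1 could be counted here if strand was not used, which is not given.

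Genes of the imprinted region that holds Kcnq1ot1 and H19 had 2 of 11 higher and 1 lower in homozygous against control cortex. Of all genes tested, 14.5% were higher and 20.0% lower. Cdkn1c, a cell cycle inhibitor and the best known target of Kcnq1ot1 silencing, was at 122 ± 7.59 RPKM in homozygous, 119 ± 16.7 RPKM in heterozygous and 134 ± 11.2 RPKM in control cortex (SD, n = 3 each). Igf2, the growth factor that shares its enhancers with H19, was at 9.45 ± 0.588 RPKM in homozygous, 9.37 ± 0.972 RPKM in heterozygous and 10.3 ± 1.79 RPKM in control cortex (SD, n = 3 each). Neither passed in homozygous against control cortex (log2 changes -0.13 and -0.10). Tssc4 was at 13.6 ± 1.48 RPKM in homozygous cortex and 17.2 ± 0.830 RPKM in control cortex (SD, n = 3 each), a log2 change of -0.33 ± 0.08 (SE; limma adjusted p = 0.00554). Mrpl23, a mitochondrial ribosomal protein, lies 34.8 kb from H19. It was at 12.4 ± 0.864 RPKM in homozygous cortex and 9.75 ± 0.513 RPKM in control cortex (SD, n = 3 each). Its log2 change of 0.33 passed (limma adjusted p = 0.00468). Th, the tyrosine hydroxylase of catecholamine-producing neurons, which lies at the edge of the region, was at 5.40 ± 1.05 RPKM in homozygous, 0.183 ± 0.0840 RPKM in heterozygous and 0.323 ± 0.214 RPKM in control cortex (SD, n = 3 each).

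Snhg11 (NM_175692), a snoRNA host known from neurons, is encoded at chr2:158375713-158386474 on the plus strand of GRCm38 and spans 10.8 kb. The transcript carries an accession of the protein-coding kind. It was at 0.0814, 0.172 and 0.318 RPKM in homozygous cortex, 0.0815, 0.118 and 0.117 RPKM in heterozygous cortex and 0.143, 0.109 and 0.101 RPKM in control cortex. Homozygous library 3 was the highest and homozygous library 1 the lowest of all 9, just below heterozygous library 1, so the homozygous libraries spanned the others. An estimated 80 to 363 reads per library stand behind these values, and the two-sided exact permutation test of homozygous against control gave p = 0.4. Snhg17, the neighbour 14.2 kb away and also a snoRNA host, was at 1.53 ± 0.227 RPKM in homozygous cortex and 1.32 ± 0.0898 RPKM in control cortex (SD, n = 3 each).

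Long non-coding RNAs outside this set moved in both directions, some by more than 1 on the log2 scale. Of 20 tested, 3 rose and 6 fell in homozygous against control cortex, with a median log2 change of -0.04. Among all genes tested, with 1 transcript each, 14.5% rose and 20.0% fell. Rian, a maternally expressed host of snoRNAs in the Dlk1 region, was at 71.4 ± 11.2 RPKM in homozygous, 25.2 ± 2.87 RPKM in heterozygous and 28.4 ± 4.41 RPKM in control cortex (SD, n = 3 each), a log2 change of 1.31 ± 0.13 (SE; limma adjusted p = 1.17e-05). Meg3, transcribed from the same region, rose by 0.78 ± 0.14 (SE; limma adjusted p = 0.00107), and Pantr1, next to the neuronal transcription factor Pou3f3, rose by 0.42 ± 0.05 (SE; limma adjusted p = 9.53e-05). Among those that fell, E130307A14Rik was at 0.540 ± 0.164 RPKM in homozygous, 2.93 ± 0.133 RPKM in heterozygous and 4.72 ± 0.291 RPKM in control cortex (SD, n = 3 each), a log2 change of -2.34 ± 0.11 (SE; limma adjusted p = 3.78e-08). Mir9-3hg, the host of a copy of the neural microRNA miR-9, fell by 1.50 on the log2 scale (limma adjusted p = 9.43e-08). Dlx1as fell by 1.04, Sox2ot, which overlaps Sox2, by 0.97, and Ftx of the X inactivation centre by 0.72 (limma adjusted p at most 0.00239). Imprinted genes outside the Kcnq1ot1 region had 9 of 17 higher and 1 lower, beside the same 14.5% and 20.0% over all genes. Their median log2 change was 0.31. Among them Dlk1, a membrane ligand related to Notch ligands, rose by 1.27 and Grb10, an adaptor that dampens insulin signalling, fell by 1.22 (limma adjusted p = 6.87e-06 and 5.10e-06). That list counts Meg3 and Rian a second time, had 6 higher with no minimum level, and had 2 lower without control library 1.

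Heterozygous embryos were compared with control embryos to ask what loss of 1 copy changes. None of the 6 tested transcripts passed, and neither did any of the 17725 transcripts tested (limma; 0.0%), of which 969 had an unadjusted p below 0.05. Each list of other genes and of markers also had 0 calls in this comparison. Snhg1 was lower in all heterozygous than in all control libraries (means 22.7 ± 0.894 and 24.8 ± 1.19 RPKM, SD, n = 3 each), where 10.7% of transcripts had no overlap and 6.92% were lower without one. That difference, -0.13 ± 0.12 (SE; 95% interval -0.39 to 0.14), was small beside its error, and its sign turned with a term for sex. Rmst changed by -0.08 ± 0.07, Gas5 by 0.06 ± 0.10 and Miat by 0.16 ± 0.15 (log2, SE). Malat1 averaged 464 ± 107 RPKM in heterozygous cortex and 396 ± 26.8 RPKM in control cortex (SD, n = 3 each), a log2 change of 0.21 ± 0.13 (SE; 95% interval -0.07 to 0.48; limma adjusted p = 0.980), and this came to 0.02 without heterozygous library 1. The change of Miat was -0.06 without that library.

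In the remaining comparison, homozygous against heterozygous cortex, 3 of the 6 tested transcripts passed: Snhg1 and Rmst higher and Malat1 lower. Of all transcripts tested 33.4% passed, 14.5% higher and 18.9% lower. Quantile normalization changed the split of all calls to 3757 higher and 3100 lower, against 2572 higher and 3354 lower. This comparison shares its homozygous libraries with the first, so it does not repeat it independently. Snhg1 averaged 39.97 ± 9.14 RPKM in homozygous and 22.7 ± 0.894 RPKM in heterozygous cortex (SD, n = 3 each), a log2 change of 0.78 ± 0.12 (SE; limma adjusted p = 4.49e-04). Rmst averaged 31.5 ± 2.41 RPKM in homozygous and 23.9 ± 1.71 RPKM in heterozygous cortex (SD, n = 3 each), a log2 change of 0.39 ± 0.07 (SE; limma adjusted p = 0.00101). Both passed in all 20 alternatives. Malat1 averaged 343 ± 26.2 RPKM in homozygous and 464 ± 107 RPKM in heterozygous cortex (SD, n = 3 each), a log2 change of -0.41 ± 0.13 (SE; limma adjusted p = 0.0263). Without heterozygous library 1 the change was -0.23 ± 0.08 (SE; limma adjusted p = 0.0473). Its groups did not overlap, as for 46.9% of transcripts tested. The call of Malat1 was lost with no minimum level (limma adjusted p = 0.129), without homozygous library 2 (0.0862) and without homozygous library 3 (0.0532), and held in 17 of 20 alternatives. Gas5 changed by -0.09 ± 0.10 and Miat by -0.01 ± 0.15 (log2, SE).

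**Figure D3:**
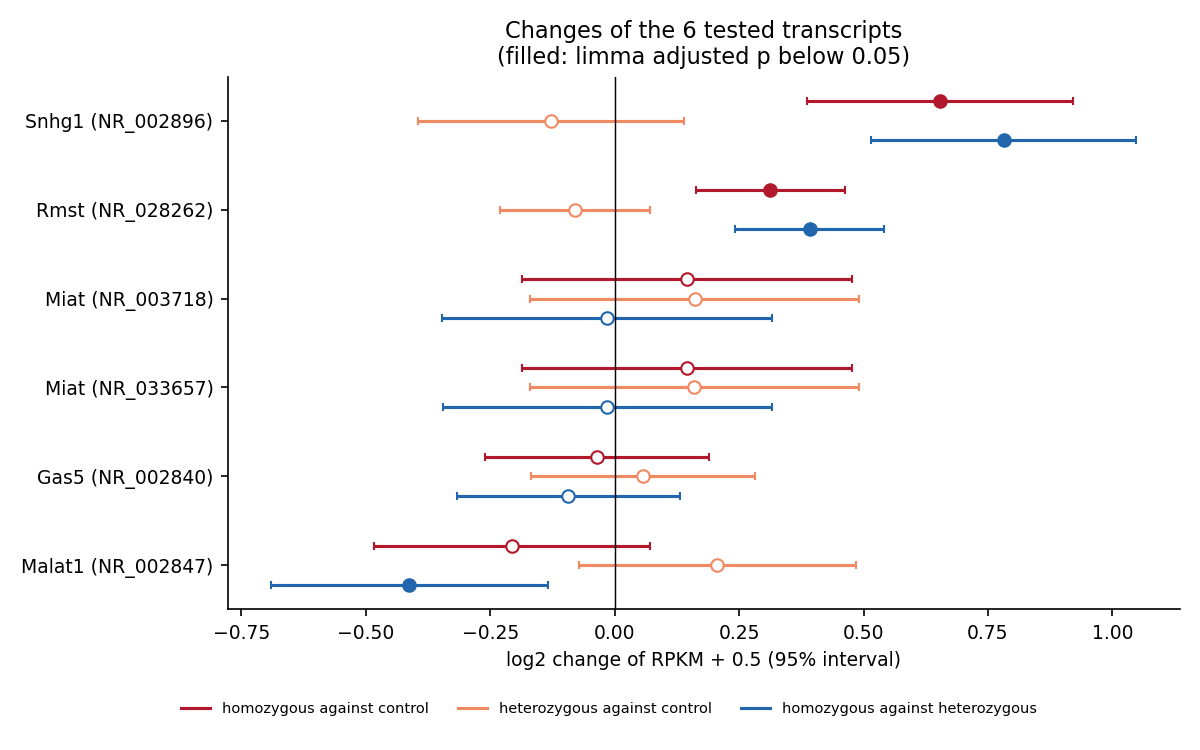
Log2 change of RPKM + 0.5 with its 95% interval from the limma fit (x axis) for the 6 tested transcripts (rows), with homozygous against control, heterozygous against control and homozygous against heterozygous from top to bottom in each row. Filled points had an adjusted p below 0.05; Snhg1 and Rmst are right of 0 in both comparisons of homozygous cortex, and all 6 intervals of heterozygous against control cortex include 0.

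The genes whose levels ran most like each RNA over the 9 libraries are given as a description, by Pearson's r of log2(RPKM + 0.5) among genes averaging 1 RPKM or more. The 9 libraries share their genotypes, so a gene that differs between genotypes resembles every other that does. Each match is also the highest of a search through all such genes over only 9 libraries. A high r can therefore come from the search alone. Rmst ran most like Slc35g2 (r = 0.99) and Usp44 (r = 0.98), and Snhg1 most like Tmem201 (r = 0.99) and Inka2 (r = 0.98). Inka2, an inhibitor of the kinase Pak4, was at 2.01, 1.38 and 1.64 RPKM in homozygous, 0.712, 0.666 and 0.626 RPKM in heterozygous and 0.788, 0.764 and 0.827 RPKM in control libraries. Its homozygous libraries had the same order as those of Snhg1, with library 1 the highest and library 2 the lowest. Malat1 ran most like Lime1 and Mtdh (r = 0.87 each). Miat ran most like Prss12 (r = 0.90) and Rnf4 (r = 0.87), and Prss12, a secreted protease of neurons, was at 3.29, 1.07 and 1.11 RPKM in heterozygous libraries 1, 2 and 3. Gas5 ran most like Ercc8 (r = 0.90) and Mir17hg (r = 0.89). Kcnq1ot1 ran most like Srrm1, a speckle protein (r = 0.99), and Map1a (r = 0.90), and Snhg11 most like Them4 (r = 0.89) and the neurofilament gene Nefl (r = 0.88).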

How the data were processed

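Total RNA was depleted of ribosomal RNA and made into stranded libraries, per the labels' protocols. CASAVA 1.8.2, TopHat 1.4.1 and the build mm9 are named in the submitters' processing notes. The authors deposited 1 table per library with RPKM values for 30978 RefSeq transcripts, per the file headers; the sources used here do not give the counting program or how it treated strand and multiply mapped reads, so overlapping, antisense and multi-copy genes are uncertain. Low values fell on steps worth 1 read, which gave the estimated depths (of values below 5 reads, 65.9% to 70.4% were within 0.1 of a whole number); since lengths came from GENCODE M21 on GRCm38, not the authors' build, depths and reads are approximate, and no count test was run. Coordinates and sequences are those of GRCm38 from RefSeq.

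Transcripts were named by the RefSeq gene table (30503) or the GENCODE M21 table (182, among them those of Gas5 and Snhg11), and 293 stayed unnamed. All 9 libraries were fitted in R 4.3.3 with limma 3.58.1, using genotype as the factor and empirical Bayes moderation with a trend, on log2(RPKM + 0.5), for transcripts with a mean of at least 0.5 RPKM, with Benjamini-Hochberg adjustment over all 17725 and calls at an adjusted p below 0.05. Fold changes on this scale understate those of low values. Single genes were also compared with two-sided exact permutation tests (scipy 1.17.1). The test was also run on simulated data with normal noise, in which 200 transcripts were shifted. Far more transcripts were called in the real data, and the shifts were larger than the change of Rmst. That run therefore does not vouch for the calls given here. No 2 libraries held the same table. The design text gives 3 embryos per genotype, so p-values measure the spread between embryos. The genes described and all lists were chosen with earlier results of these data known. In lists each gene is represented by its transcript with the highest mean. Genes named are the 8 genes, Sfpq, list genes including those with the smallest adjusted p, the nearest neighbours of each gene and the 2 genes most like it over the libraries. Alternatives were other pseudocounts, minimum levels, scalings and fits, and leaving out each library.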

Additional observations from a re-analysis of the deposited data

How the results depend on the processing

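Of 357 recalculated log2 changes of the 6 tested transcripts, 339 kept their direction and their side of the threshold, 14 turned sign without passing the test, 3 lost a call and 1 gained one. The 3 losses and the gain are those of Malat1: in homozygous against heterozygous cortex -0.41 with no minimum level, and -0.35 and -0.43 without homozygous library 2 and library 3; in homozygous against control cortex -0.21 without heterozygous library 1. Quantile normalization turned Gas5 in homozygous against control cortex to 0.0055 and Miat in homozygous against heterozygous cortex to 0.0599 (NR_033657) and 0.0612 (NR_003718). A term for sex turned Snhg1 in heterozygous against control cortex to 0.0060. Leaving out 1 library gave -0.142 to 0.039 for Gas5 in homozygous against control and -0.0274 to 0.124 in heterozygous against control cortex. For Miat it gave -0.0576 to 0.271 (NR_033657) and -0.0571 to 0.271 (NR_003718) in heterozygous against control and -0.125 to 0.203 (NR_033657) and -0.126 to 0.203 (NR_003718) in homozygous against heterozygous cortex. The cause was not tested.

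The count of transcripts called in heterozygous against control cortex, 0, became 1 with no minimum level (Prrt1) and 1 in the fit of the 2 compared groups (Rps3a1), and ranged from 0 to 1 when single libraries were left out (Rps3a1, without homozygous library 1); both names were chosen after their values were seen.

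Libraries with the same replicate number deviated together with r from -0.04 to 0.39, over 0.1 in 2 of 9 pairs. Between control and homozygous cortex, r was 0.39, 0.10 and 0.32 for libraries 1, 2 and 3. Control and homozygous libraries with different numbers had r from -0.40 to 0.05. Deviations were taken from the mean of each genotype, so a high r for same numbers lowers r for different numbers. The 2 sets of r are therefore not independent. By sex, control and homozygous libraries 1 were both female and libraries 3 both male, while libraries 2 differed. Same-numbered libraries of these 2 genotypes had the higher r, and the part of sex or any other reason was not tested. The main fit did not use the replicate number. With the replicate number as a block, 6620, 0 and 6388 transcripts were called in the homozygous against control, heterozygous against control and homozygous against heterozygous comparisons, and the counts of the tested long non-coding transcripts stayed at 2, 0 and 3. Values under 0.5 RPKM, as for Kcnq1ot1 and Snhg11, limit what can be detected there, and 3 libraries per genotype limit the exact tests to p = 0.1.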
